A study of Homo sapiens with 18 samples.

Results

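The genomic surroundings of the 6 DLX homeobox genes, DLX1 to DLX6, and of METAP1D, the neighbour of DLX1, were examined for open chromatin in 6 human ovarian cancer cell lines. The members are the 1 kb windows of the deposited table that overlap the hg19 (GRCh37) span of one of these 7 genes extended by 50 kb on each side. There were 63 such windows among 89428, of which 38 lay around METAP1D, DLX1 and DLX2 on chromosome 2, 12 around DLX3 and DLX4 on chromosome 17, and 13 around DLX5 and DLX6 on chromosome 7. These genes were chosen on their accessibility in the same lines, so the levels and fold changes of the windows are given as a description, without p-values. The table itself holds only windows above 2 FPKM in at least 2 libraries, and the 7 gene surroundings span 502 windows of the tiling grid, so 63 is the part with signal somewhere in the series.

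ATAC-seq uses the Tn5 transposase to cut and tag accessible DNA, and the level of a window is its fragment count scaled to window length and library size (FPKM). Each of 3 platinum-sensitive lines has a resistant partner, with 3 libraries per line and no drug treatment stated in the labels. A2780, labelled as endometrial/ovarian, is paired with CP70, a resistant derivative obtained from it in vitro. PEA1 and PEA2 come from ascites of 1 patient with high-grade serous ovarian cancer, the first before platinum chemotherapy and the second at resistant relapse. PEO1 and PEO4 come from another such patient, before and after resistance developed. Both PEO lines were isolated after platinum-based chemotherapy, so PEO1, unlike PEA1, had prior exposure. Each line stands for 1 tumour or 1 culture lineage, so a difference between lines of a pair cannot be told apart from other differences between those lineages. Nothing states that the 3 libraries of a line came from separate cultures, and the spread between them may be technical.

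DLX proteins are homeodomain transcription factors, vertebrate relatives of Distal-less, which pattern the jaws, limbs and ventral forebrain and drive the production of GABAergic interneurons. The genes sit in convergently transcribed couples that share enhancers in the DNA between them: DLX1 with DLX2, DLX3 with DLX4 and DLX5 with DLX6. METAP1D encodes a mitochondrial methionine aminopeptidase, an enzyme that removes the first methionine of proteins, and belongs to another family.

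The sequences of the promoters and of 3 windows away from them are shown first, because base composition is compared between the windows below. The promoters of 4 of the 7 genes were matched in RefSeq (assembly GRCh38.p14, 250 bases before to 50 after the start), each found once in GRCh37, and the promoters of DLX3, DLX4 and DLX5 are named only. They are written 5′ to 3′ on the gene's strand with CG dinucleotides in capitals. METAP1D at chr2:172864610-172864909 (plus strand) held 45 CG dinucleotides, DLX1 at chr2:172949985-172950284 (plus) held 23, DLX2 at chr2:172967579-172967878 (minus) held 30 and DLX6 at chr7:96634615-96634914 (plus) held 30, against a median of 14 over 35116 RefSeq promoters.
METAP1D: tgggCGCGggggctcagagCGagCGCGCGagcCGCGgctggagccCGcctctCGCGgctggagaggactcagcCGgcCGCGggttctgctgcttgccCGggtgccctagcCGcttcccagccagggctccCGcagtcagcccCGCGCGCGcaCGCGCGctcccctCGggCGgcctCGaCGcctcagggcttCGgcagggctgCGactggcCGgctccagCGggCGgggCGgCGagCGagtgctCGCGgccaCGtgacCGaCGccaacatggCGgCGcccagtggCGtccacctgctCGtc
DLX1: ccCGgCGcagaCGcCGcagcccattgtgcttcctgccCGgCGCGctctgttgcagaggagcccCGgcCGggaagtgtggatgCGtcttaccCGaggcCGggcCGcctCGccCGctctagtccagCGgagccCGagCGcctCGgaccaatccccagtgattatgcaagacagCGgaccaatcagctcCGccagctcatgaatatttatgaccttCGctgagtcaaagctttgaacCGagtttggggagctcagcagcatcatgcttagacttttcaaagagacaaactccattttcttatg
DLX2: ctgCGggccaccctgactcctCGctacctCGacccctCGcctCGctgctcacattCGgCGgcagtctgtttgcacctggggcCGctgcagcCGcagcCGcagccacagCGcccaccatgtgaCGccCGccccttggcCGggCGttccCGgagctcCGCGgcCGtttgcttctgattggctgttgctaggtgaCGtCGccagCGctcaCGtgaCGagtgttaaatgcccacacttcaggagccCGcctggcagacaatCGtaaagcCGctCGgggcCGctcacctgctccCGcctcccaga
DLX6: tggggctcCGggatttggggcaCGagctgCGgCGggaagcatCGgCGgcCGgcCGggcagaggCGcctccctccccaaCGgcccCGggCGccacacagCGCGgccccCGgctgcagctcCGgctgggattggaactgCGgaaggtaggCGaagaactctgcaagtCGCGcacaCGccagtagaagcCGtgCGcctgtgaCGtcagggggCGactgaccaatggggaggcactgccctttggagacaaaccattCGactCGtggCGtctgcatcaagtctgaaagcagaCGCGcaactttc

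Windows away from these starts are shown by their central 300 bases on the plus strand of GRCh37, again with CG in capitals. The first, chr2:172930851-172931150 in a METAP1D exon and its flanking introns, is the centre of the window with the largest loss from A2780 to CP70. The second, chr7:96641451-96641750 within DLX6-AS1, a long non-coding RNA gene that runs antisense through DLX6, is the centre of the window with the largest such loss beside DLX5 and DLX6. The third, chr17:48105351-48105650 between genes, is the centre of the window with the widest range of levels near DLX3. They held 2, 7 and 7 CG dinucleotides.
METAP1D exon window: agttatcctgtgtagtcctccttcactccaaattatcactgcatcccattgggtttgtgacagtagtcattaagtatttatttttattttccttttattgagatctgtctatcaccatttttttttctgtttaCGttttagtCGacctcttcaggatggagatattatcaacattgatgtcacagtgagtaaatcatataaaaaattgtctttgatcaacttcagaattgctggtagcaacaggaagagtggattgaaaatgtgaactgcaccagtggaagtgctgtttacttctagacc
DLX6-AS1 window: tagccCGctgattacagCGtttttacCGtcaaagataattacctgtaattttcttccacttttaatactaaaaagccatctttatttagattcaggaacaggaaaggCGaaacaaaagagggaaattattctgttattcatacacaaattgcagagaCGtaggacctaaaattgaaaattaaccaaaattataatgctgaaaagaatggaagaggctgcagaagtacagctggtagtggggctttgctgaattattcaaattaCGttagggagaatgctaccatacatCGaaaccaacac
DLX3 distal window: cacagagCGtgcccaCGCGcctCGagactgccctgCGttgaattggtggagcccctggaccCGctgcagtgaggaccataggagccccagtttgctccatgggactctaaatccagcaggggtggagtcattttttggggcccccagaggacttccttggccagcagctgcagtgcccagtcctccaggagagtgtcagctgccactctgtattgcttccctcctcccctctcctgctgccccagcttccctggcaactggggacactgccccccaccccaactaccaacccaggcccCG

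The dominant feature at DLX1 was a run of windows where A2780 was higher than the other 5 lines, CP70 included, whose medians over the run stayed below 1 FPKM. Toward the DLX1 start some of the others were also accessible, with CP70 at a mean of 2.15 FPKM in chr2:172948501-172949500 and 2.14 in chr2:172951201-172952200. In these windows PEA1 had means of 1.77 and 1.41 and PEA2 1.17 and 1.46. PEO1 had 0.625 and 0.876 and PEO4 0.663 and 0.763. All 3 A2780 libraries lay above the other 15 libraries in 24 of the 38 windows of this locus. These 24 windows lay between chr2:172877401 and chr2:172959400, over 82.0 kb that held 27 windows of the table and 92 of the grid, and ran from the introns of METAP1D across DLX1 toward DLX2. Their A2780 means ranged from 2.19 to 6.38 FPKM with a median of 3.13, whereas CP70 had a median of 0.599 over the same windows. PEO4 had 0.356, PEO1 0.125, PEA2 0.200 and PEA1 0.312. The lowest A2780 library exceeded the highest other library 2.95-fold at the median window, 1.04-fold at the narrowest margin and 8.98-fold at the widest. A2780 replicate 2 was the highest A2780 library in 22 of the 24, and it also had the largest share of reads in the windows of the table among the A2780 libraries (10.0%). The part of this share in its levels was not tested. CP70 was the next line in 18 of the 24 windows and PEO4 in 6. The 3 windows within the run where A2780 did not separate were that of the DLX1 start, the next one downstream and a METAP1D intron window, chr2:172903501-172904500, with means of 2.00 FPKM in PEO4 and 0.893 in A2780.

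Such windows were rare in the table as a whole. A2780 stood above all other libraries in 0.181% of the 89428 windows, or 162 windows, and 28 of those 162 (17.3%) were member windows, the remaining 4 of them beside DLX5 and DLX6. Within 500 kb of the DLX1 start the table held 57 windows, and all A2780-only windows lay within 100 kb of it, 19 upstream and 5 downstream. Of the 24 windows, 23 passed the table's selection only through A2780, so their presence in the table already requires a high A2780 level.

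**Figure D1:**
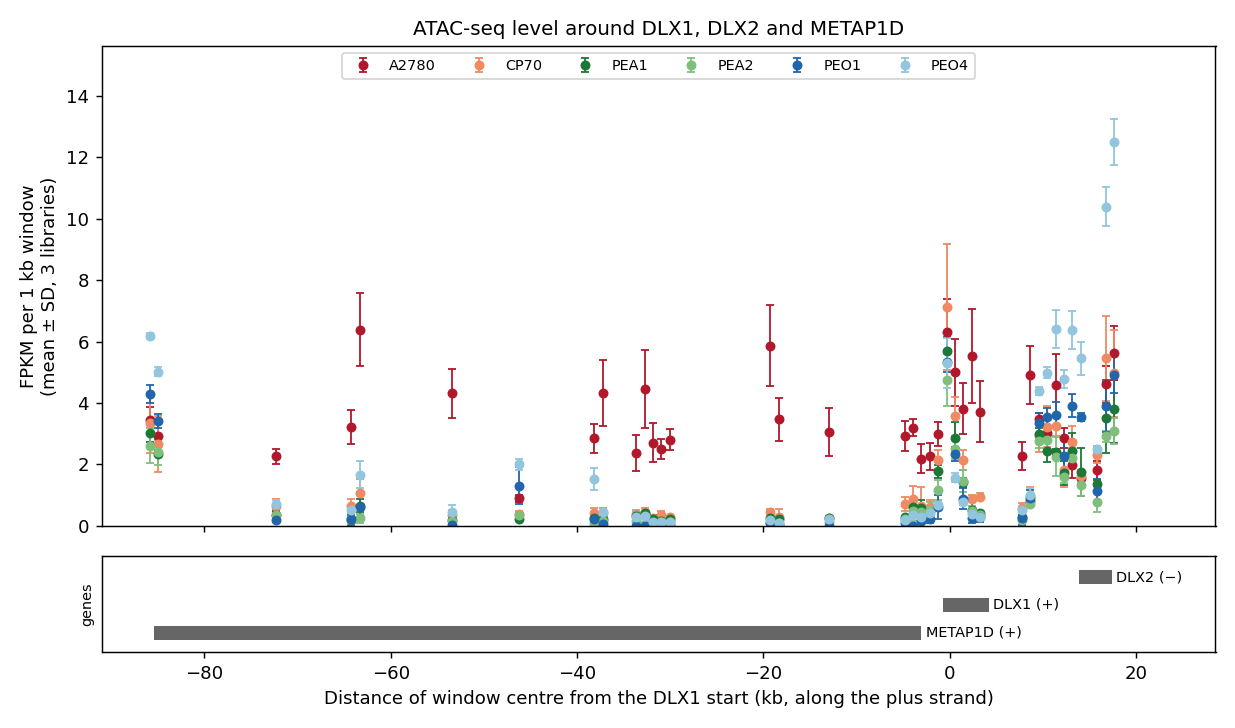
ATAC-seq level in FPKM (mean ± SD of 3 libraries per line) of the 38 windows around METAP1D, DLX1 and DLX2 against the distance of the window centre from the DLX1 start in kb, with the genes as bars. A2780 stands alone in 24 windows across METAP1D and DLX1 at 2.19 to 6.38 FPKM. All 6 lines are accessible at the DLX1 start, and PEO4 is highest on the DLX2 side.

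Most of the run lay inside METAP1D. Of the 28 A2780-only member windows, 13 were centred in METAP1D introns and 3 in METAP1D exons, whereas the METAP1D start window itself, chr2:172864801-172865800, was open in every line. That start window measured 2.75, 3.47 and 2.56 FPKM in the A2780 libraries and 3.71, 2.21 and 2.05 in CP70. PEA1 measured 2.34, 2.27 and 2.45 and PEA2 2.86, 2.08 and 2.22. PEO1 measured 3.34, 3.66 and 3.23 and PEO4 5.17, 4.99 and 4.88. PEO4 was above every other line there, and A2780 overlapped CP70, PEA2 and PEO1. It adjoins the divergent gene SLC25A12, which encodes a mitochondrial aspartate-glutamate carrier.

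The window with the largest fall in CP70 was chr2:172930501-172931500, 19.2 kb upstream of the DLX1 start and centred on a METAP1D exon. It measured 5.39, 7.37 and 4.84 FPKM in A2780 and 0.379, 0.539 and 0.461 in CP70. The PEA1 libraries measured 0.224, 0.280 and 0.288 and the PEA2 libraries 0.0550, 0.0578 and 0.222. PEO1 held a single read in each library, at 0.101, 0.0873 and 0.111 FPKM, and PEO4 measured 0.0581, 0.0960 and 0.448. Every A2780 library was high and no other library exceeded 0.539 FPKM. On the log2(FPKM + 0.1) scale CP70 differed from A2780 by -3.40 ± 0.252 (SE, 3 libraries each), a fold of 10.6.

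A second METAP1D intron window, chr2:172886401-172887400, had the highest A2780 mean of all members. It measured 5.91, 7.73 and 5.49 FPKM in A2780 and 1.52, 1.08 and 0.628 in CP70. PEO4 retained 1.22, 2.11 and 1.64, above the 0.911, 0.175 and 0.780 of PEO1, and the PEA libraries lay between 0.116 and 0.872. The change was -2.52 ± 0.270 in the A2780 pair and 1.46 ± 0.375 in the PEO pair.

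DLX1 showed both patterns within its own span. The window of the DLX1 start, chr2:172949401-172950400, measured 6.14, 7.46 and 5.36 FPKM in A2780, 9.47, 6.23 and 5.70 in CP70, and 5.64, 6.17 and 5.27 in PEA1. It measured 5.66, 3.99 and 4.61 in PEA2, 5.56, 4.97 and 5.46 in PEO1 and 5.93, 5.62 and 4.38 in PEO4. Ordered by their means the lines ran CP70, A2780, PEA1, PEO1, PEO4 and PEA2, and each neighbour in that order overlapped the next. CP70 differed from A2780 by 0.15 ± 0.324 at this window, PEA2 from PEA1 by -0.27 ± 0.229 and PEO4 from PEO1 by -0.02 ± 0.148. With each library centred on its median these changes were -0.43, -0.64 and 0.33.

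Only 2.37 kb beyond that start, the intronic window chr2:172952101-172953100 measured 5.70, 6.96 and 3.93 FPKM in A2780 against 0.758, 0.898 and 1.01 in CP70. The 12 PEA and PEO libraries lay between 0.111 and 0.815 there. In the A2780 pair the window changed by -2.48 ± 0.263. The window next to the start, chr2:172950301-172951300, measured 4.66, 6.24 and 4.12 in A2780 and 4.17, 2.87 and 3.64 in CP70, which overlapped, and had a mean of 1.56 in PEO4.

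**Figure D2:**
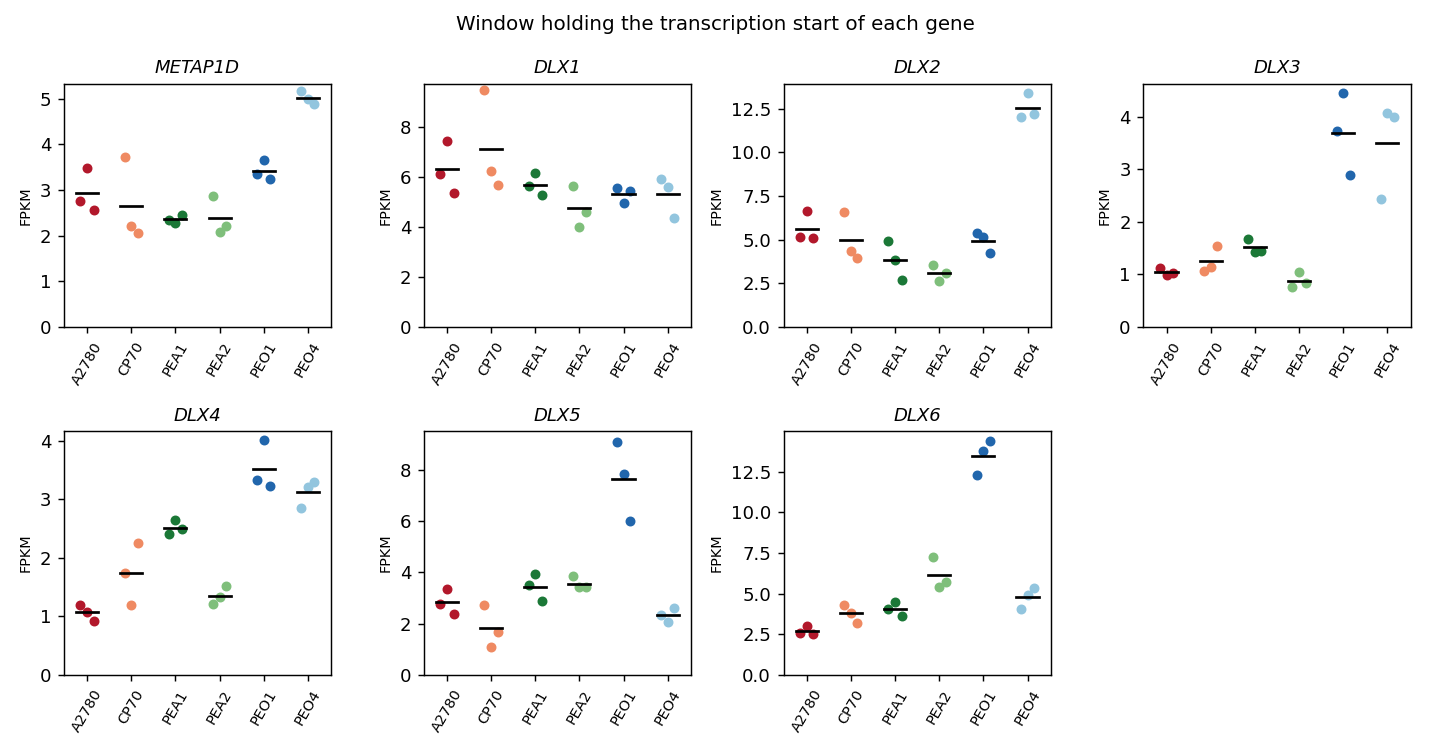
FPKM of the window holding the transcription start of each of the 7 genes, 1 panel per gene with its own axis from 0, 1 point per library (3 per line) and a bar at the line mean. At DLX1 lines next to each other in the order of means overlap, DLX2 and METAP1D are highest in PEO4, DLX5 and DLX6 in PEO1, and DLX3 and DLX4 in PEO1 and PEO4.

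On the DLX2 side PEO4 took the lead. Of the 9 windows of the table between chr2:172959301 and chr2:172968400, PEO4 stood above all other libraries in 8, which over the whole table happened in 15.3% of windows. PEO4 means ran from 2.50 to 12.5 FPKM over these 9 windows, with a median of 5.45, against 3.55 in PEO1, 3.03 in A2780, 2.91 in CP70, 2.44 in PEA1 and 2.25 in PEA2. DLX2, the partner of DLX1 in interneuron development, had its start in chr2:172967401-172968400, which measured 12, 13.4 and 12.2 in PEO4 against 5.36, 5.15 and 4.24 in PEO1. A2780 measured 5.18, 6.62 and 5.07 and CP70 6.59, 4.37 and 3.94. PEA1 measured 4.93, 3.83 and 2.69 and PEA2 3.52, 2.66 and 3.11. After PEO4 the order of means was A2780, CP70, PEO1, PEA1 and PEA2, and each neighbour overlapped the next.

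The neighbouring exonic window, chr2:172966501-172967500, had the widest range of line means at this locus outside the start windows. It measured 9.82, 11.1 and 10.4 FPKM in PEO4 and 3.74, 4.80 and 3.12 in PEO1, a change of 1.42 ± 0.145, and the start window changed by 1.34 ± 0.129. In the PEA pair these windows changed by -0.22 ± 0.228 and -0.26 ± 0.228.

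At DLX5 and DLX6, transcription factors of jaw and limb development, PEO1 was the highest line at both starts, where the other lines also had signal. By mean, A2780 was the highest line in 5 of the 13 windows and PEA1 in 1. PEO1 lay above all other libraries in 7 of the 13 windows, although this held for 31.2% of windows across the table. The DLX6 start window, chr7:96634801-96635800, measured 12.3, 13.8 and 14.4 FPKM in PEO1 and 4.07, 4.94 and 5.33 in PEO4. It measured 4.07, 4.49 and 3.64 in PEA1, 7.25, 5.43 and 5.72 in PEA2, 2.56, 3.02 and 2.53 in A2780 and 4.32, 3.83 and 3.18 in CP70. PEO4 differed from PEO1 by -1.48 ± 0.130, PEA2 from PEA1 by 0.58 ± 0.228 and CP70 from A2780 by 0.46 ± 0.282.

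The DLX5 start window, chr7:96653701-96654700, measured 9.11, 7.85 and 6.02 FPKM in PEO1 and 2.33, 2.06 and 2.59 in PEO4. It measured 3.52, 3.93 and 2.88 in PEA1, 3.85, 3.41 and 3.42 in PEA2, 2.75, 3.36 and 2.38 in A2780 and 2.73, 1.08 and 1.68 in CP70. PEO1 was separated from all lines, and the remaining lines ordered PEA2, PEA1, A2780, PEO4 and CP70 with each neighbour overlapping the next. The change was -1.66 ± 0.166 in the PEO pair and 0.06 ± 0.227 in the PEA pair.

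The largest fall in the PEO pair among the members lay beside the DLX6 start, in chr7:96633901-96634900, at 8.19, 7.94 and 8.69 FPKM in PEO1 against 1.63, 1.44 and 2.14 in PEO4. It changed by -2.21 ± 0.169, a fold of 4.62, and by 0.21 ± 0.228 in the PEA pair. An intergenic window between the couple, chr7:96645601-96646600, 8.04 kb from the DLX5 start, had the widest range outside the start windows. It measured 6.98, 10.4 and 8.14 in PEO1 against 1.57, 2.02 and 1.99 in PEO4. It measured 6.06, 6.60 and 4.22 in PEA1 and 4.45, 3.58 and 4.08 in PEA2, which overlapped. In A2780 it measured 3.35, 3.33 and 2.64, and in CP70 1.36, 1.38 and 1.05, so the resistant line was lower in the PEO and A2780 pairs. It changed by -2.12 ± 0.170 in the PEO pair, -1.24 ± 0.257 in the A2780 pair and -0.45 ± 0.228 in the PEA pair.

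**Figure D3:**
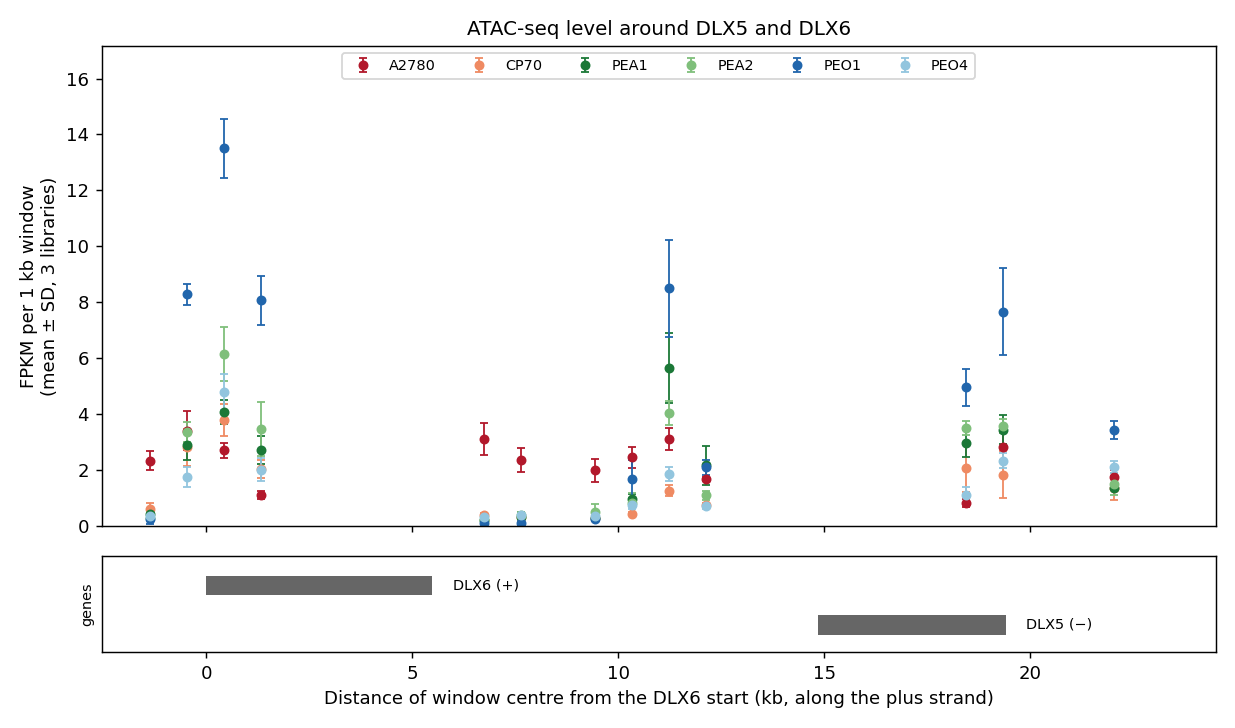
ATAC-seq level in FPKM (mean ± SD of 3 libraries per line) of the 13 windows around DLX6 and DLX5 against the distance of the window centre from the DLX6 start in kb, with both genes as bars. PEO1 is highest at the DLX6 and DLX5 starts and in the intergenic window 8.04 kb from the DLX5 start, and A2780 is the highest line in windows between the genes.

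A2780 again stood alone in 4 windows of this locus other than the start windows, at means of 1.98 to 3.10 FPKM. The highest, chr7:96641101-96642100 in a DLX6-AS1 exon 6.74 kb from the DLX6 start, measured 2.70, 3.76 and 2.83 in A2780. It measured 0.379, 0.479 and 0.335 in CP70, and the other 12 libraries lay between 0 and 0.407. It changed by -2.68 ± 0.268 in the A2780 pair, a fold of 6.41. The DLX6-AS1 gene overlaps DLX6 on the other strand, and ATAC-seq has no strand, so signal there cannot be given to one gene.

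A2780, CP70 and the PEA lines lay below the PEO lines at the starts of DLX3, a regulator of skin and placental differentiation, and DLX4. The DLX3 start window, chr17:48071701-48072700, measured 3.74, 4.45 and 2.90 FPKM in PEO1 and 2.44, 4.08 and 3.99 in PEO4. It measured 1.12, 0.991 and 1.02 in A2780, 1.06, 1.14 and 1.55 in CP70, 1.67, 1.43 and 1.44 in PEA1 and 0.769, 1.04 and 0.843 in PEA2. The DLX4 start window, chr17:48045601-48046600, had means of 3.53 ± 0.424 (SD, n = 3) in PEO1 and 3.12 ± 0.235 in PEO4, 2.51 ± 0.124 in PEA1 and 1.35 ± 0.151 in PEA2, and 1.06 ± 0.131 in A2780 and 1.73 ± 0.532 in CP70. The PEO lines were the 2 highest at both starts and overlapped each other, and PEA1 was above PEA2 in every library. PEO1 libraries held 38.9 to 40.8% of their reads in the windows of the table and PEO4 libraries 32.8 to 35.9%. In the other lines this share ran from 8.37 to 20.7%, and its part in these levels was not tested.

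The strongest signal near DLX3 was not at its start. The intergenic window chr17:48105001-48106000, 32.9 kb from the DLX3 start, measured 14.6, 14.7 and 14.8 FPKM in PEO1, 9.48, 9.12 and 6.92 in PEO4, 8.07, 8.75 and 6.23 in PEA1 and 3.68, 4.39 and 3.77 in PEA2. A2780 measured 0.837, 0.744 and 0.860 there and CP70 0.833, 1.38 and 1.21. Its neighbours on both sides, chr17:48104101-48105100 and chr17:48105901-48106900, were also highest in PEO1, at means of 7.67 and 3.81, and lowest in A2780, at 0.967 and 0.705. Windows share 100 bp with the next, so the 3 are partly the same reads. The central window fell by 0.93 on the log2 scale in the PEA pair (SE 0.229) and by 0.80 in the PEO pair (SE 0.120). The surrounding 5 Mb had a median change of -1.1 in the PEA pair. With the 5 Mb median removed the change of the central window in that pair was 0.11, so its direction turned.

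Counted over all members, the 3 pairs differed. A window was called where its log2 fold change exceeded 2 in size at an adjusted p below 0.001 (limma, Benjamini-Hochberg adjustment over all windows tested in the pair). In the A2780 pair 19 of the 54 member windows tested were called lower in CP70, 15 at DLX1 and 4 at DLX5 and DLX6, and 18 were called without A2780 replicate 2. Over all 37128 windows tested, 0.369% were called lower and 0.428% higher, and 13.9% of the 137 windows lower in CP70 were members. The genes were chosen on their accessibility in these lines, so this share is a description. None of the 54 was called higher by limma or by edgeR. At an unadjusted p under 0.05, 3 were higher, with no share over all windows given at that threshold. The test needs a mean above 1 FPKM over the pair, and a window that met this only through A2780 had to be lower in CP70.

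The median change of the members tested was -1.46 in the A2780 pair, against 0.59 over all windows. This median rests on the 28 A2780-only windows, whose direction in this pair is fixed by how they were set apart, and 18 of them were among the 19 calls. The other 35 members had medians of 1.75 FPKM in A2780 and 1.73 in CP70, and the 4 tested at DLX3 and DLX4 had a median change of 0.36. CP70 libraries held a larger share of reads in the windows of the table (11.8 to 15.6%) than A2780 libraries (8.37 to 10.0%). At the looser threshold of an adjusted p under 0.05, 32 members were lower and 3 higher in CP70, where the shares over all windows were 2.29% lower and 47.5% higher.

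In the PEA pair none of the 33 member windows tested was called by limma or edgeR, although 11.2% of the 66103 windows tested were called higher in PEA2 and 1.42% lower. At an unadjusted p under 0.05, 13 were lower and 1 higher. At an adjusted p under 0.05 the members numbered 11 lower and 1 higher, against 21.4% lower and 43.0% higher over all windows. With each library centred on its median these became 24 lower and 0 higher. No share over all windows is given at the unadjusted p, with this centring or with the 5 Mb median removed. Counts under those settings are a description. At DLX1, DLX2 and METAP1D 2 of 15 were lower, and 11 of 15 with that centring or with the 5 Mb median removed. Of the 11, 8 lay at DLX3 and DLX4, where all 10 windows tested had a negative change with a median of -0.75. The 5 Mb around that couple had a median change of -1.10 in this pair, and relative to it 9 of the 10 were positive, with 0.33 at the DLX3 start and 0.19 at the DLX4 start, so the direction at this couple turns when the level of the surrounding region is removed.

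In the PEO pair 3 of the 36 windows tested were called lower in PEO4, all at DLX5 and DLX6, and none was called higher by limma or edgeR. With no filter on low values 2 were called higher and 3 lower, and without PEO1 replicate 2 there were 1 and 2. Over all 77654 windows tested, 5.78% were called lower and 2.72% higher. At an unadjusted p under 0.05, 15 were higher and 15 lower. The same numbers held at an adjusted p under 0.05, against 21.9% higher and 45.8% lower over all windows. The couples went opposite ways: at DLX1, DLX2 and METAP1D 13 of 15 tested were higher and 1 lower, and at DLX5 and DLX6 all 9 tested were lower. The 5 Mb around DLX1 had a median change of 0.70 in this pair, and with it removed 6 of the 15 were higher and 2 lower, while at DLX5 and DLX6 7 of the 9 were still lower. With the 5 Mb median removed no member passed the call thresholds in this pair, and the same was true with each library centred on its median. No share over all windows at an adjusted p under 0.05 is given with the 5 Mb median removed.

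**Figure D4:**
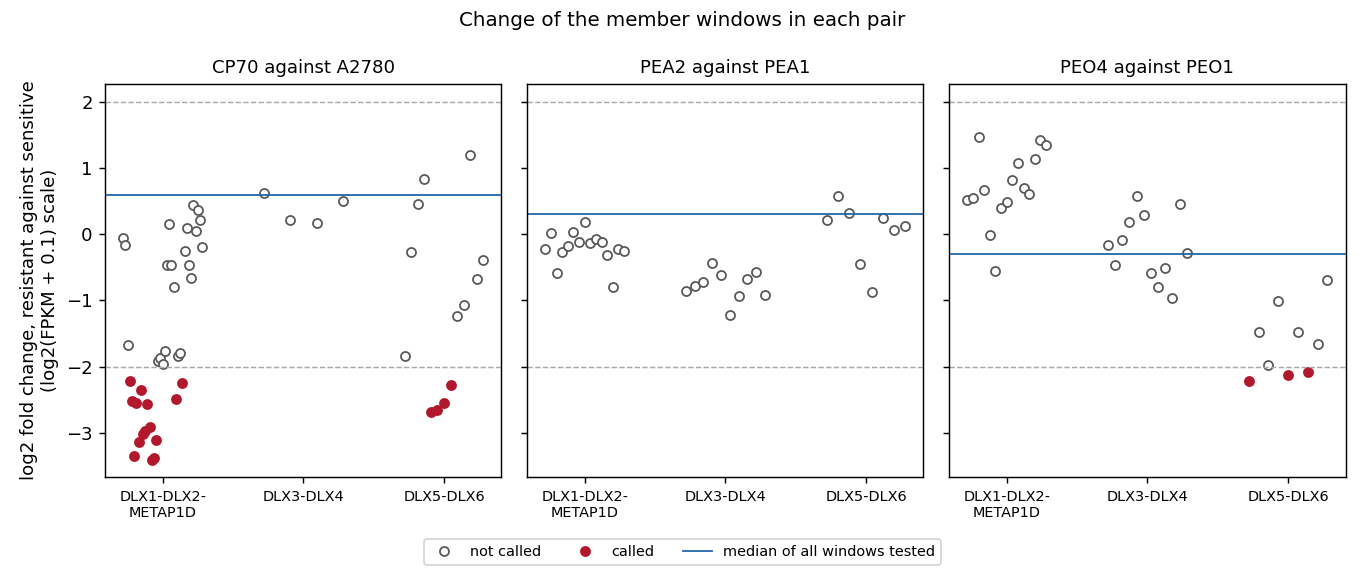
log2 fold change (resistant against sensitive, log2(FPKM + 0.1) scale) of every member window tested, by locus and pair, each point 1 window in chromosome order. Filled points passed the call thresholds, dashed lines mark a change of 2 in size, and the solid line is the median of all windows tested (0.59, 0.31 and -0.30); called members lie below -2 in the A2780 pair (19) and the PEO pair (3).

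The PEA and PEO changes were also set against each other in one fit of their 12 libraries. In 4 of 36 members the change in PEA2 exceeded that in PEO4 by over 2 on the log2 scale at an adjusted p below 0.001, all at DLX5 and DLX6, against 22.0% of 81671 windows in this direction and 4.56% in the other. With each library centred on its median these calls became 0 in this direction and 3 in the other, and with the 5 Mb median removed none remained.

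Base composition varied along the 28 A2780-only windows, of which 27 passed the table's selection only through A2780. They were not set against A2780-only windows outside the members, and many are neighbours in 1 gene, so the values are a description. In the 24 windows at DLX1 the GC content had a median of 42.0% (range 33.0 to 59.6%) and the ratio of observed to expected CpG a median of 0.26, against medians of 50.4% and 0.31 over all windows. The 16 centred in METAP1D were the most AT-rich, at a median of 38.6% GC and 0.22 observed to expected CpG. The other 8 of this run, on the DLX1 side, had medians of 52.2% and 0.61, and the 4 at DLX5 and DLX6 had 46.0% and 0.56. The METAP1D windows had the lowest median GC content of these sets, though they ranged from 33.0 to 56.3%. The other 35 members, of which 11 were highest in PEO1 alone and 11 in PEO4 alone, had medians of 58.2% GC and 0.63. The METAP1D exon sequence printed above, at 35.7% GC, contrasts in this way with the DLX1 promoter at 59.0%.

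Sequence motifs were counted on both strands in whole windows as a description. TAATTA, the core bound by DLX and many other homeodomains and its own reverse complement, occurred in 12 of the 28 A2780-only windows (42.9%) and in 5 of the other 35 members (14.3%), against 19.4% of all windows. The DLX6-AS1 window held it 4 times, once in the 300 bases shown. The 28 windows are also richer in A and T, and the part of base composition in the motif count was not tested. TGANTCA, a pattern with any middle base that includes the AP-1 site but is broader, occurred in 5 of the 28 and 7 of the 35, against 38.3% of all windows. None of the 4 printed promoters held TAATTA, which is in 4.84% of RefSeq promoters of this length.

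**Figure D5:**
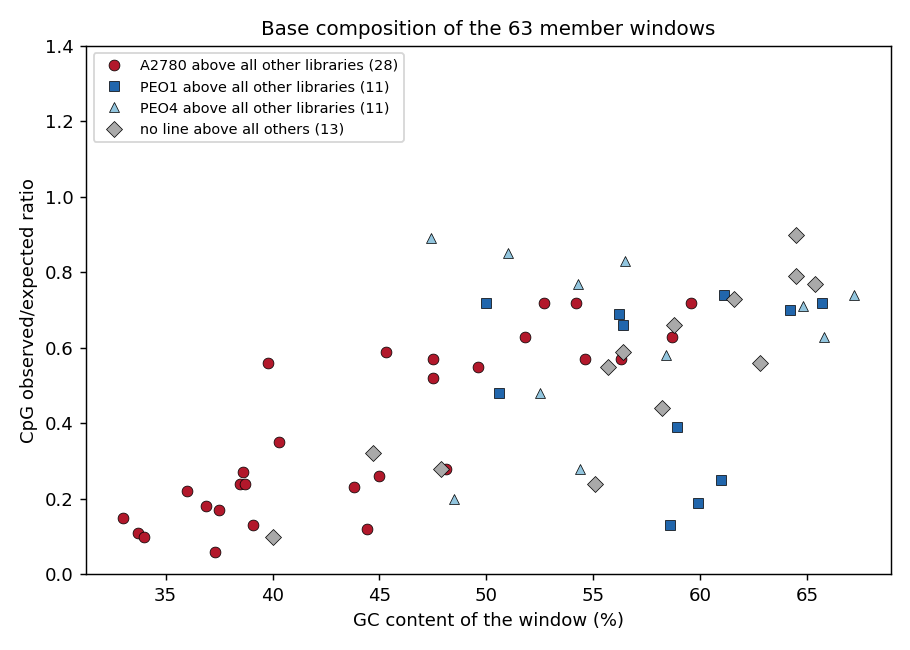
GC content in percent against the ratio of observed to expected CpG for the 63 member windows, marked by the line whose 3 libraries lie above all 15 others. The 28 A2780 windows spread from 33.0 to 59.6% GC with a median of 44.1%, mostly to the left of the 11 PEO1 and 11 PEO4 windows.

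For context, 21 genes tied to DLX factors by textbook knowledge were followed at their start windows, of which 16 were in the table. These are relatives (MSX1, MSX2), BMP signals upstream of DLX, homeodomain partners (MEIS and PBX) and targets such as GAD1, which makes GABA. At an adjusted p under 0.05, 6 of 13 tested were higher and 0 lower in CP70, with 0 lower also by edgeR and at an unadjusted p under 0.05. Over all windows the shares were 47.5% and 2.29%, so the count is near the background. With median centring these became 0 higher and 2 lower. In PEA2 5 of 15 were higher and 2 lower, and in PEO4 3 of 14 were higher and 6 lower, where the shares over all windows were 43.0% and 21.4% in PEA2 and 21.9% and 45.8% in PEO4, so nothing is read from these counts about the list. The numbers higher and lower were 4 and 4 in PEA2 and 4 and 3 in PEO4 after centring. The count of 6 in the A2780 pair became 1 without A2780 replicate 3 and 3 without A2780 replicate 1, and the 7 of the PEA pair became 4 without PEA2 replicate 1.

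MSX2, a homeodomain repressor related to the DLX proteins, went from 0.660 ± 0.106 FPKM (SD, n = 3) in PEA1 to 6.57 ± 0.411 in PEA2, a log2 change of 3.14 ± 0.234 (limma, adjusted p = 7.53e-39). It also rose in CP70 by 1.14 ± 0.260 (limma, adjusted p = 1.67e-04), from 0.845 ± 0.302 to 1.97 ± 0.562, and fell by 0.47 in PEO4 (SE 0.122, limma, adjusted p = 8.73e-04), from 11.4 ± 0.309 to 8.26 ± 1.17. BMP4, a ligand that induces DLX genes in several embryonic tissues, rose by 1.65 ± 0.300 in PEA2 (limma, adjusted p = 1.51e-07). MEIS2, a homeodomain cofactor, fell by 2.04 in PEO4 (SE 0.165, limma, adjusted p = 2.60e-13), from 9.48 ± 2.28 to 2.20 ± 0.300. In the same pair NRP2, a semaphorin receptor repressed by DLX factors in the forebrain, fell by 1.30 (SE 0.135), BMP2 fell by 1.21 (SE 0.165), and BMP7 rose by 1.20 ± 0.219 (limma, adjusted p = 1.18e-10, 5.88e-08 and 9.78e-06). These genes were named for the size of their change, from a list chosen with earlier results known, so the values are a description. The p-values rest on 3 libraries per line, whose spread may be technical. Over all windows 11.2% were called higher in PEA2 and 5.78% lower in PEO4. In CP70, 47.5% of all windows were higher at an adjusted p under 0.05, and the median change was 0.59. With median centring 0 of the 13 linked genes tested, MSX2 included, were higher in CP70 at that threshold. The level of the surrounding region was not removed from these changes.

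The start windows whose levels followed the DLX1 start window most closely across the 18 libraries belonged to SLC2A4 and TMEM268 (Pearson r = 0.79 each), CSPG4 (0.78) and VASH2 and PFKFB2 (0.77 each), out of 13587 start windows with a mean above 1 FPKM. The points share library depth and line, and the value is a description.

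The library totals implied by the values ran from 8972042 to 60495462 reads, with A2780 the deepest line and PEO1 the shallowest, and 3 reads corresponded to 0.0523 FPKM in A2780 replicate 1. Markers of epithelium and Müllerian lineage were in the table for 7 of 8 genes. Their start windows summed to 5.77 FPKM in A2780 and 9.06 in CP70, against 13.6 to 61.4 in the other lines, and EPCAM measured 0.740 ± 0.116 (SD, n = 3) in A2780 against 11.3 ± 0.600 in PEO1. SOX17 went the other way, at 0.896 in A2780 against 0.721 in PEO1 and 0.661 in PEO4. Of the markers of other cell types, 1 of 3 immune, 0 of 3 endothelial and 1 of 4 fibroblast genes had a start window in the table. The part of these differences, the shares of reads included, in the levels above and in the marker sums was not tested.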

How the data were processed

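ATAC-seq was carried out on 18 libraries of 6 established cell lines, grouped by the cell line in their labels. The authors aligned reads to hg19 with Bowtie2, removed duplicates with Picard, counted reads in 1 kb windows stepped by 900 bp and deposited FPKM. As all windows have the same length, the deposited FPKM equals RPM. Versions were not given in the sources used here. All values were whole multiples of 1 read (tolerance 0.01 reads), which gave the reads and the library totals. In A2780 replicate 1 no window held a single read, so the unit there came from the steps between values. The read numbers cover counting error only. Replicate libraries differed by a chi-square per window of 1.07 to 2.10, and none were merged. Reads from repeats are left out by unique alignment, and scaling to the total makes a value depend on how many reads fall outside open chromatin.

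Gene spans and canonical starts came from GENCODE release 44 mapped to GRCh37, and coordinates count from 1. Members and lists were chosen with earlier results of these data known. Each pair was fitted with limma 3.58.1 in R 4.3.3 on log2(FPKM + 0.1) with a mean-variance trend, over all windows with a mean above 1 FPKM, and edgeR 4.0.16 on the recovered reads was an alternative. Fold changes on this scale understate the change of low windows. The fit was tested on simulated data. The windows named were the start window of each gene, the 3 with the widest range of line means per locus, and the called member with the largest rise and fall per pair. The DLX1 intron, DLX6-AS1 and DLX2-side windows were added after their values were seen. Genes named besides members were the 5 with the highest correlation to the DLX1 start window and linked genes with a log2 change over 1 in size. Alternatives covered pseudocounts, filters, scaling, thresholds, gene spans and each replicate left out.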

Additional observations from a re-analysis of the deposited data

Results flagged for a closer look

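At 3 start windows the change in the PEA pair and the change in the PEO pair differed in the joint fit of their 12 libraries. The log2 change in PEA2 minus that in PEO4 was -1.60 ± 0.266 (SE) at the DLX2 start, 2.06 ± 0.244 at the DLX6 start and 1.72 ± 0.267 at the DLX5 start. DLX2 was higher in PEO4 than in PEO1 and overlapped in the PEA lines, whereas DLX5 and DLX6 were lower in PEO4 than in PEO1. Over all windows this difference had a median of 0.58. Its median was -0.58 in the 5 Mb around DLX1 and DLX2 and 0.37 in the 5 Mb around DLX5 and DLX6. With the 5 Mb median removed 0 members passed the call thresholds for this difference. These windows were chosen with the levels of the lines in view, so the values are a description.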

How the results depend on the processing

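The 19 calls in the A2780 pair numbered 10 with a pseudocount of 0.5 FPKM, 1 with a pseudocount of 1, 7 with a mean above 2 FPKM, 12 with the upper depth limit of the study (fewer windows tested) and 30 with thresholds of 1 and 0.05. The PEA pair had 1 call in place of 0 with those looser thresholds. The 3 calls of the PEO pair became 0 with either larger pseudocount, with median centring and with the 5 Mb median removed, 5 with no filter and 13 with the looser thresholds. The 4 differences between the PEA and PEO changes became 2 and 0 with pseudocounts of 0.5 and 1, 8 with no filter, 0 with the 5 Mb median removed and 11 with the looser thresholds. For the linked genes, the 6 calls of the A2780 pair became 2 with a mean above 2 FPKM or median centring and 3 with the 5 Mb median removed. The 7 of the PEA pair became 3 with the upper depth limit and 11 with the 5 Mb median removed. A larger pseudocount shrinks the fold of low windows by construction, and the other causes were not tested. No share over all windows is given for the looser thresholds, so those counts are a description. Leaving out 1 library at a time gave 18 to 22 member calls for A2780 and CP70, 0 for PEA1 and PEA2, 3 for PEO1 and PEO4 (1 higher and 2 lower without PEO1 replicate 2), and 3 to 5 for the difference, and linked counts of 1 to 7, 4 to 7 and 6 to 10.

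With the replicate block the member calls were 19, 0 and 3 and the linked counts 6, 6 and 9. Same-numbered libraries did not deviate together (r from -0.41 to 0.04), so the numbers were not treated as pairs. Of 614 refitted fold changes of the named windows, 529 stayed within 1 SD of the replicates and 85 moved further. The sign changed in 33, none of them a window in a pair where it was called. Depth limits the low lines most, since PEO1 held 0 to 3 reads per library in several of the A2780-only windows.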
